A study of Drosophila melanogaster with 20 samples.

Results

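Transcript levels of 69 genes for proteins of the mitochondrial ribosome were followed in eye imaginal discs of Drosophila melanogaster, the larval epithelia that later form the compound eyes. The genes are all those whose platform symbol starts with mRpL or mRpS and that have a probe set not shared with another gene. Each was represented by its single-gene probe set of highest mean, and they are 69 of the 11982 genes that had such a probe set. All 69 were bright enough to enter the tests, which covered 10262 probe sets. RNA was measured on 20 Affymetrix arrays, and the question of the design was how discs that express a misfolding human proinsulin differ from discs that express the normal protein or none. C96Y discs expressed human proinsulin with cysteine replaced by tyrosine, and came from the insertion lines Mut-1 and Mut-101. Wild-type discs expressed unmutated human proinsulin and came from the insertion lines WT-24 and WT-6. Non-transgenic discs carried no proinsulin transgene. In all groups the labels list the driver GMR-GAL4. This driver acts in cells that the morphogenetic furrow has passed, so only part of each disc expressed proinsulin. All larvae were in the third instar, at the wandering stage, and kept at 25 °C, and transgenes were hemizygous. There were 2 male and 2 female arrays per line, which gave 8 C96Y, 8 wild-type proinsulin and 4 non-transgenic arrays. A line is 1 insertion, and between single lines the protein and the insertion site cannot be told apart.

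Mitochondrial ribosomes lie in the mitochondrial matrix and translate the few proteins encoded by mitochondrial DNA, which are core subunits of the respiratory chain and of ATP synthase. Their RNA comes from mitochondrial DNA, whereas their proteins are encoded in the nucleus, made in the cytosol and imported. One set of these proteins descends from the bacterial ribosome, and another was added in the course of mitochondrial evolution. Among the 69 genes, 46 encode proteins of the large subunit and 23 of the small subunit. By the nomenclature of the mammalian mitochondrial ribosome, 41 have a bacterial counterpart and 28 are specific to mitochondria. In that nomenclature mRpS18A and mRpS30 belong to the large subunit in spite of their names, and they are counted there.

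Values are linear array intensities. The brightness of a probe set depends on its probes as well as on its transcript, so no gene's level is set against another's. Changes are log2 changes with standard errors (SE) from limma, a linear model fitted to all tested probe sets, and a gene was counted as higher or lower when its Benjamini-Hochberg adjusted p over all 10262 probe sets was under 0.05. The discs are bulk samples, in which fewer cells of a type and less RNA per cell cannot be told apart. Array medians lay between 210.2 and 282.8 intensity units. All 13 eye disc markers were bright enough to be tested, dac for example at 7761 to 9478 units. Other tissues left traces that differed between arrays. Fbp1, a storage protein receptor of the fat body, exceeded 1000 units on 2 arrays, a non-transgenic male and a WT-24 female. The ring gland enzyme spok exceeded 1000 units on 8 arrays, namely 2 C96Y, 3 wild-type proinsulin and 3 non-transgenic arrays, and on none of Mut-1.

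The mean log2 intensity over the 69 genes was 11.57 ± 0.0553 on C96Y arrays, 11.53 ± 0.0454 on wild-type proinsulin arrays and 11.54 ± 0.0164 on non-transgenic arrays (SD, n = 8, 8 and 4). It ranged from 11.48 to 11.64 in C96Y discs, from 11.44 to 11.58 in wild-type discs and from 11.52 to 11.55 in non-transgenic discs, so the groups overlapped. Of the single arrays, Mut-1 female replicate 2 had the highest mean level and held the highest value of 15 of the 69 genes. WT-6 male replicate 2 had the lowest mean level and held the lowest value of 27 genes. Mut-101 male replicate 2, which also had the highest array median, held the lowest value of 11.

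C96Y discs differed from wild-type proinsulin discs in single mitoribosomal genes, in both directions. Of the 69 genes, 16 were higher and 6 lower in C96Y, together 31.9% of the group, against 20.1% of all tested probe sets (11.5% higher and 8.59% lower). The median residual SD was 0.0643 for the 69 genes and 0.102 for all probe sets, and a smaller spread lets smaller changes pass. Its part in this and the later shares was not tested. The quartiles of the changes were -0.03 and 0.11 for the 69 genes, against -0.08 and 0.08 for all tested probe sets. The median change of the 69 genes was 0.03 on the log2 scale, against -0.00 for all tested probe sets, and 46 genes had a positive and 23 a negative change. The changes were small: mRpL36 was highest at 1.25-fold, and mRpL46 was lowest at 0.835-fold. All 22 genes past the threshold had the same sign in each of the 4 pairs of a C96Y and a wild-type line, as did 45 of the 69 genes and 53.9% of all tested probe sets. The 22 genes were called on the same arrays, so their agreement in sign is largely built in and is no separate support.

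**Figure D1:**
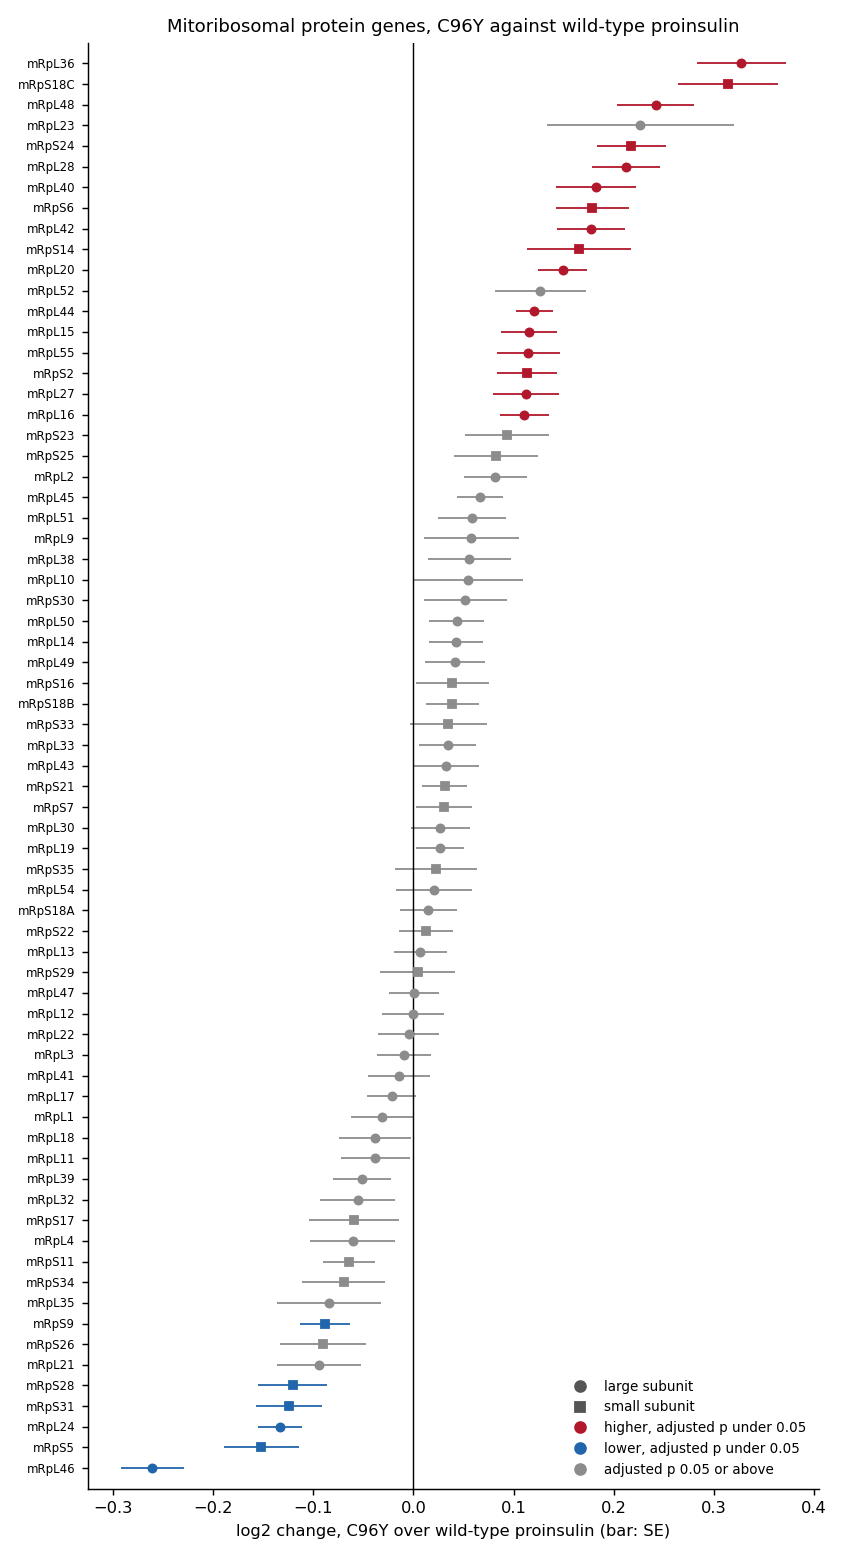
Log2 change of each of the 69 mitoribosomal protein genes in C96Y over wild-type proinsulin discs (8 arrays each), with bars for the SE, circles for large-subunit and squares for small-subunit genes. The 16 higher genes (red) run down from mRpL36 at 0.33, the 6 lower genes (blue) end with mRpL46 at -0.26, and mRpL23, at 0.23 with a wide error, stands among the higher genes without passing the threshold.

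In the large subunit, 11 of 46 genes were higher and 2 lower. The counterparts of bacterial proteins gave 6 higher and 1 lower gene of 28. mRpL36, the counterpart of a small zinc-binding protein of the bacterial large subunit, had a lowest, median and highest intensity of 2468, 2782 and 3000.1 in C96Y discs. The same 3 values were 1933, 2200 and 2404 in wild-type discs, and the 4 non-transgenic arrays read 2374, 2143, 2168 and 2263. Every C96Y array was above every wild-type and every non-transgenic array. The change over wild-type discs was 0.33 ± 0.0444 (SE, adjusted p = 0.000249 by limma).

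mRpL28 lay at 2496, 2875 and 3382 in C96Y discs, against 2305, 2532 and 2675 in wild-type discs and 2463 to 2626 in non-transgenic discs. The Mut-101 arrays lay among those of the other groups and the Mut-1 arrays above them. Its change over wild-type discs was 0.21 ± 0.0341 (limma adjusted p = 0.000883). mRpL20, whose bacterial counterpart binds early in the assembly of the large subunit, rose by 0.15 ± 0.0246 (limma adjusted p = 0.00111). It read 3673 to 4199 units in C96Y and 3347 to 3683 units in wild-type discs, a narrow overlap of the extremes. mRpL15 rose by 0.12 (limma adjusted p = 0.0119). mRpL27 and mRpL16, whose bacterial counterparts lie near the peptidyl transferase centre, each rose by 0.11.

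The one counterpart of a bacterial large-subunit protein that fell was mRpL24, whose bacterial counterpart is an early assembly protein beside the exit tunnel. It lay at 4030 to 4543 units with a median of 4192 in C96Y discs, and at 4353 to 4859 with a median of 4670 in wild-type discs. The non-transgenic arrays read 4561, 4426, 4623 and 4609. The group ranges met at their edges, where the 2 Mut-1 females were the highest C96Y arrays and WT-6 male replicate 2 the lowest wild-type array. mRpL24 fell by 0.13 ± 0.0221 on the log2 scale (limma adjusted p = 0.00113).

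Among the 18 large-subunit genes specific to mitochondria, 5 were higher and 1 was lower. mRpL46, which in mammals belongs to the central protuberance of the large subunit, lay at 2521, 2627 and 2853 in C96Y discs, against 2905, 3201 and 3418 in wild-type discs. The non-transgenic arrays read 3092, 3198, 3242 and 3098. Every C96Y array was below every other array. mRpL46 changed by -0.26 ± 0.0314 over wild-type discs, with the smallest adjusted p of the 69 genes (0.000101 by limma).

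mRpL48 and mRpL40, which in mammals belong to the same protuberance, changed in the opposite direction. mRpL48 lay at 1326, 1495 and 1609 in C96Y discs, against 1172, 1263 and 1312 in wild-type discs and 1251 to 1347 in non-transgenic discs. The C96Y and wild-type arrays did not overlap, while Mut-101 male replicate 2 was below the highest non-transgenic array. The change of mRpL48 over wild-type discs was 0.24 ± 0.0385 (limma adjusted p = 0.00083). mRpL40 rose by 0.18 ± 0.0397 (limma adjusted p = 0.00623), with overlapping ranges of 1837 to 2321 and 1644 to 1977 units. mRpL42 rose by 0.18 and mRpL55 by 0.11. mRpL44, a protein with a ribonuclease III-like fold, rose by 0.12 ± 0.0186 (limma adjusted p = 0.000667).

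In all, 3 of the 69 genes had C96Y arrays wholly apart from the wild-type arrays: mRpL36 and mRpL48 above them and mRpL46 below. Of all tested probe sets 2.28% lay wholly above and 0.692% wholly below.

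**Figure D2:**
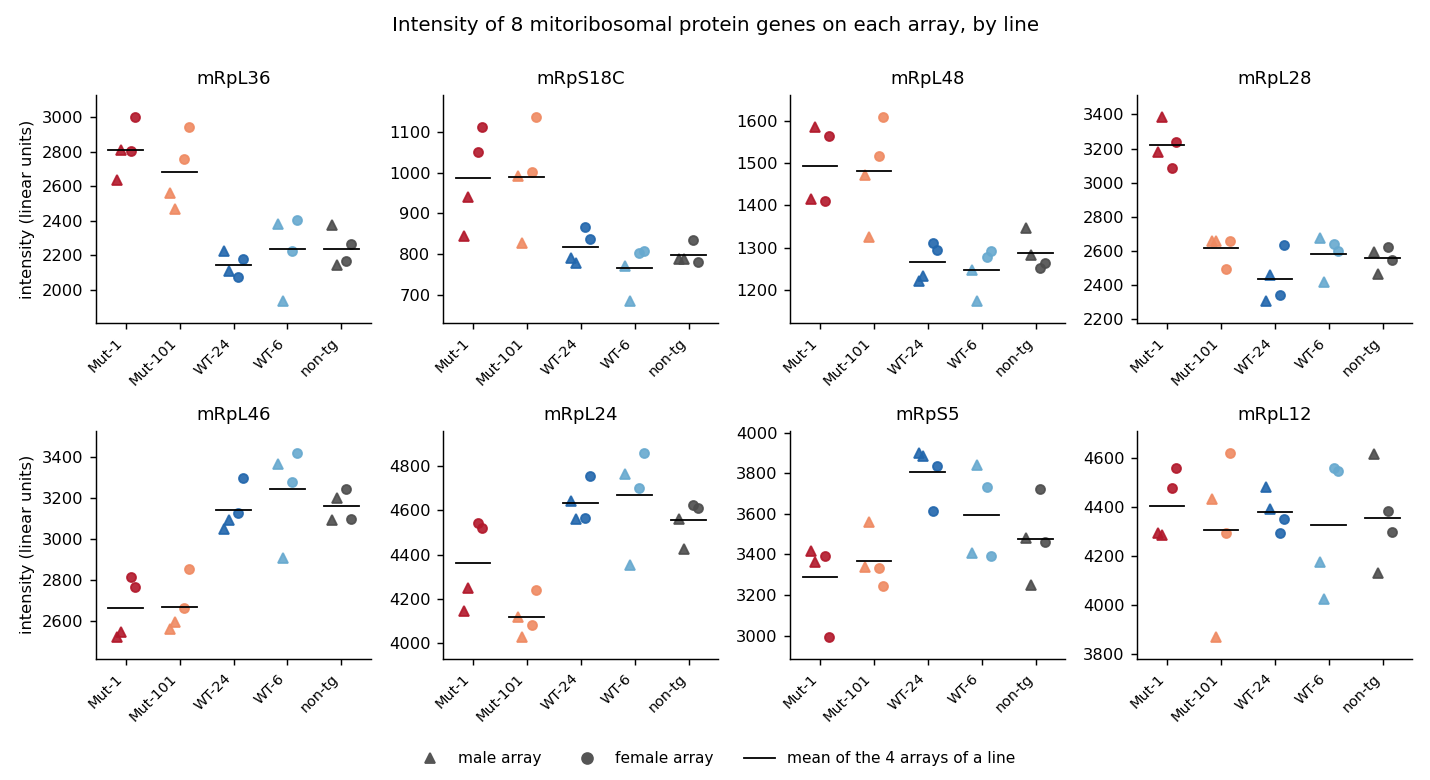
Intensity (linear units, axes not starting at 0) of 8 mitoribosomal protein genes on each of the 20 arrays, by line, with triangles for male and circles for female arrays and a line for the mean of 4 arrays. mRpL36, mRpS18C and mRpL48 are high in Mut-1 and Mut-101, mRpL28 in Mut-1 alone at 3089 to 3382 units, mRpL46 and mRpL24 are low in both C96Y lines, and mRpL12 has almost equal group means of 4355, 4354 and 4357.

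In the small subunit, 5 of 23 genes were higher and 4 lower. All 5 that rose and 3 of the 4 that fell have a bacterial counterpart. mRpS18C is one of 3 mitochondrial relatives of bacterial S18 and the only one of them classed here as having a bacterial counterpart. It lay at 827.3, 996.6 and 1136 in C96Y discs. Wild-type discs read 683.4, 796.1 and 865.3, and the non-transgenic arrays 788.5, 787.6, 835.6 and 779.7. The 2 lowest C96Y arrays, both male, overlapped the wild-type range. mRpS18C changed by 0.31 ± 0.0498 (limma adjusted p = 0.000825), while its relatives mRpS18A and mRpS18B were at 0.01 and 0.04 and did not pass the threshold.

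mRpS24, the mitochondrial form of the S3 protein at the entry of the mRNA channel, lay at 1798, 2108 and 2233 in C96Y discs, against 1629, 1780 and 1873 in wild-type discs. Non-transgenic arrays, at 1979, 1903, 1799 and 1915, lay between the medians of the other groups. The change over wild-type discs was 0.22 ± 0.0346 (limma adjusted p = 0.00083). Among the remaining small-subunit genes that rose, mRpS6 changed by 0.18, mRpS14 by 0.17 and mRpS2 by 0.11. mRpS14 passed the threshold narrowly (limma adjusted p = 0.0396).

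mRpS5, whose bacterial counterpart takes part in decoding accuracy, lay at 2994, 3351 and 3560 in C96Y discs. It lay at 3392, 3784 and 3901 in wild-type discs and at 3478, 3249, 3724 and 3461 on the non-transgenic arrays, which overlapped both. mRpS5 changed by -0.15 ± 0.0373 over wild-type discs (limma adjusted p = 0.0121). mRpS31, the one gene of 10 specific to the mitochondrial small subunit that passed the threshold, changed by -0.12 (limma adjusted p = 0.0187). mRpS28, the mitochondrial form of S1, changed by -0.12 (limma adjusted p = 0.0249), and mRpS9, whose bacterial counterpart reaches the peptidyl-tRNA, by -0.09 (limma adjusted p = 0.0239).

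The other 47 genes did not pass the threshold, with changes between -0.09 and 0.23. mRpL12, the stalk protein that recruits elongation factors and that fly larvae need for growth, had almost equal means of 4355 ± 234 in C96Y, 4354 ± 187 in wild-type and 4357 ± 203 units in non-transgenic discs (SD, n = 8, 8 and 4). Its change over wild-type discs was -0.00, with a 95% confidence interval of -0.07 to 0.07 (limma adjusted p = 0.996). mRpL23, at the exit tunnel in bacteria, had a change of 0.23 but the largest array-to-array spread of the 69 genes, from 2600 to 3171 units in C96Y and from 1882 to 2897 units in wild-type discs (limma adjusted p = 0.11). For 2 genes a further single-gene probe set was measured, and neither passed the threshold (mRpS11 at -0.03 and mRpL47 at -0.01). Outside the 69 genes, a probe set shared by mRpS10 and CG34316 passed at 0.08 (limma adjusted p = 0.0386). Another, shared by mRpL53 and CG33155, was at -0.08 and did not pass (limma adjusted p = 0.075).

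The unit of these tests is the array within a line and sex. With 1 mean per line as the unit, which leaves 2 residual degrees of freedom, 0 of the 69 genes and 0 of all 10262 probe sets passed the limma threshold, and 19 of the 69 and 1906 of the 10262 had an unadjusted p under 0.05. Without line Mut-1 the count was 8, without WT-24 it was 11, without the 8 arrays rich in spok it was 11, and with arrays centred on the median of all their probe sets it was 3. Among those lost without Mut-1 were mRpS24, mRpL28, mRpL40, mRpS6, mRpL20, mRpL15, mRpS14, mRpS5, mRpS31 and mRpS9. Among those lost without WT-24 were mRpL40, mRpL15, mRpS14, mRpS5, mRpS31, mRpS28 and mRpS9. The 3 calls kept with centred arrays were mRpL36, mRpS18C and mRpL46. The call of mRpS14 held without 9 of the 20 arrays in turn, and was lost without any WT-24 array, WT-6 male 2 or female 1, Mut-101 male 1 or either female, or replicate 2 of either Mut-1 sex, with adjusted p up to 0.101. That of mRpS28 was lost without WT-6 female 2, WT-24 male 2 or female 2, Mut-101 male 1 or female 1, or Mut-1 male 1. That of mRpS9 was lost without WT-6 male 1 or female 2, WT-24 female 1, Mut-101 female 1, or replicate 2 of either Mut-1 sex.

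Markers of other cells and of the eye disc were also counted in C96Y against wild-type discs, where 20.1% of all tested probe sets passed the threshold. The shares past it were 28.6% of brain and neuroblast markers, 22.2% of haemocyte markers and 53.8% of eye disc markers. Of 7 tested brain and neuroblast markers, 2 were lower in C96Y (dpn and nerfin-1) and none was higher, and their summed intensity ranged from 7253 to 9522 in C96Y, from 8258 to 10288 in wild-type and from 8136 to 9182 in non-transgenic discs. Of the 13 eye disc markers 6 were lower and 1 was higher in C96Y, with sums of 49858 to 54700 in C96Y, 51582 to 58370 in wild-type and 53897 to 54709 in non-transgenic discs. Ring gland sums (3 of 8 markers tested, none past the threshold) had medians of 681.2, 946.3 and 3286 in the same order, and the lowest spok value of any array was 19.4. Haemocyte markers gave 1 higher and 1 lower of 9, and no tested fat body, muscle or salivary gland marker passed. The part of these cells in the mitoribosomal changes was not tested. The RefSeq spans of 14 of the 22 genes past the threshold, and of 41 of all 69, overlap that of another gene, for example mRpL16 with arm and mRpS31 with mib1, and whether a neighbour's transcript enters a probe set was not tested.

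Against non-transgenic discs, C96Y discs had 9 higher and 3 lower mitoribosomal genes, together 12 of 69, or 17.4%, against 11.5% of all tested probe sets (6.80% higher and 4.75% lower). All 12 were also past the threshold against wild-type proinsulin, in the same direction, but both comparisons use the same 8 C96Y arrays. mRpS18C changed by 0.30 ± 0.061, mRpL36 by 0.30 ± 0.0543, mRpS6 by 0.22 ± 0.0442, mRpL48 by 0.21 ± 0.0471 and mRpL28 by 0.18 ± 0.0418 (limma adjusted p between 0.00406 and 0.0137). mRpL46 changed by -0.25 ± 0.0385 (limma adjusted p = 0.00123), mRpS9 by -0.11 and mRpL24 by -0.10. mRpS24 and mRpS5, which differed between C96Y and wild-type discs, had changes of 0.12 and -0.06 against non-transgenic discs that did not pass the threshold (limma adjusted p = 0.0882 and 0.396). mRpL36 and mRpL27 had C96Y arrays wholly above the non-transgenic arrays, and mRpL46 and mRpS11 wholly below, where the shares of all probe sets were 3.46% and 1.81%. mRpL27 and mRpS11 were chosen here after their values were seen.

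The non-transgenic group has 4 arrays, and single ones decided part of these calls. The count fell to 4 without male replicate 2, which is one of the arrays with fat body transcripts, to 6 without male replicate 1 and to 5 without female replicate 2. Without both fat body arrays it was 3, without line Mut-1 it was 3, and it was 0 with 1 mean per line or with arrays centred on the median of all probe sets. mRpL48 was lost without non-transgenic male 2, mRpL28 without male 2 or female 2, and mRpL24 without any of the 4 non-transgenic arrays. mRpS9 held without 10 of the 20 arrays in turn, and was lost without any non-transgenic array, Mut-101 male 1, male 2 or female 1, or Mut-1 male 1, male 2 or female 2. mRpS18C, mRpL36, mRpS6 and mRpL46 held without any single array.

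Wild-type proinsulin discs and non-transgenic discs differed past the limma threshold in 0 of the 69 genes, and 3 had an unadjusted p under 0.05. Of all tested probe sets 0.107% passed the threshold (0.0487% higher and 0.0585% lower). The median change was -0.01 for the 69 genes and -0.00 for all probe sets. mRpL4, whose bacterial counterpart lines the exit tunnel, had the largest difference, at 0.12 ± 0.0516 (limma adjusted p = 0.659). It was followed by mRpS24 at -0.10 and mRpS26 at 0.10. mRpL20 had all 8 wild-type arrays (3347 to 3683 units) below all 4 non-transgenic arrays (3700 to 3793 units), as did 0.136% of all probe sets. Its change was -0.09 and did not pass the threshold (limma adjusted p = 0.592).

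The 2 C96Y lines were then set apart, each against the same 8 wild-type arrays. In Mut-1, 16 genes were higher and 5 lower, or 30.4% of the 69, against 17.9% of all tested probe sets (9.89% higher and 8.03% lower), and the median change was 0.05 against -0.01. In Mut-101, 5 were higher and 3 lower, or 11.6%, against 7.38% of all tested probe sets (4.78% higher and 2.59% lower), and the median change was 0.01 against 0.00. mRpS18C, mRpL36, mRpL48, mRpL42 and mRpL44 were higher and mRpL46 and mRpL24 lower in each line. mRpL46 changed by -0.26 ± 0.0385 in Mut-1 and by -0.26 ± 0.0385 in Mut-101 (limma adjusted p = 0.000385 and 0.00163). mRpS18C changed by 0.31 and 0.32 in the same order, and mRpL36 by 0.36 and 0.29. mRpS24 changed by 0.29 in Mut-1 (limma adjusted p = 0.000348) and by 0.14 in Mut-101 (limma adjusted p = 0.0584). The direct difference of 0.15 between the lines did not pass (limma adjusted p = 0.139).

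**Figure D3:**
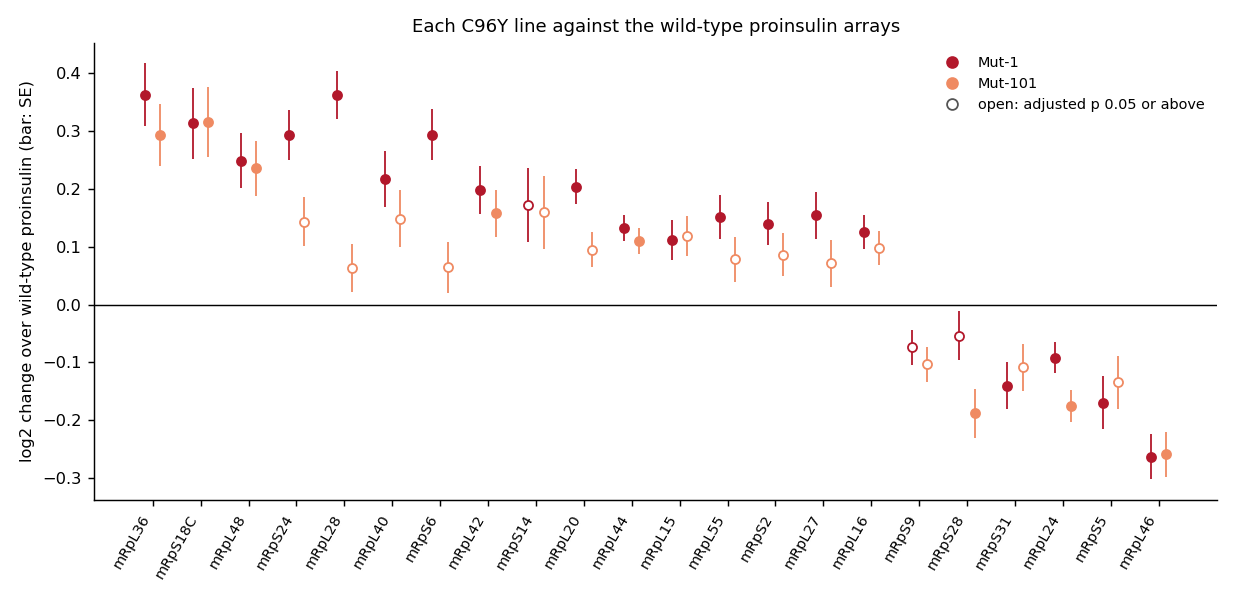
Log2 change over the 8 wild-type proinsulin arrays of Mut-1 and of Mut-101 (4 arrays each) for the 22 mitoribosomal genes past the threshold in C96Y against wild-type discs, with bars for the SE and open symbols for an adjusted p of 0.05 or above. mRpL46 is at -0.26 in both lines, while mRpL28 is at 0.36 in Mut-1 and 0.06 in Mut-101.

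Set directly against Mut-101, Mut-1 had 2 higher genes and none lower, against 3.49% of all tested probe sets (2.16% higher and 1.33% lower). mRpL28 read 3180.2, 3382, 3089 and 3238 on the 4 Mut-1 arrays, against 2657, 2661, 2496 and 2658 on the Mut-101 arrays. The Mut-101 values lay within the wild-type range. The difference was 0.30 ± 0.0483 (limma adjusted p = 0.00301). It held without any single array, and was lost with arrays centred on the median of all their probe sets and with the replicate number of the sample descriptions as a block. mRpS6 read 2690.4, 2909, 3195 and 3063 in Mut-1, against 2410.3, 2352, 2544 and 2811 in Mut-101, with an overlap of 1 array. Its difference of 0.23 ± 0.051 (limma adjusted p = 0.0246) was lost without Mut-101 male 2 or female 1, Mut-1 male 2, or either Mut-1 female. mRpL18, whose bacterial counterpart binds 5S ribosomal RNA, was at -0.20 ± 0.0511, just outside the threshold (limma adjusted p = 0.0504). It passed without WT-6 male 1, WT-6 male 2 or Mut-1 female 2. It read 2624, 2695, 2632 and 2901 in Mut-1, against 3199, 2966, 3082 and 3205 in Mut-101. Over wild-type discs it fell by 0.14 in Mut-1 (limma adjusted p = 0.0464), a call that held without WT-6 male 2 or female 1, Mut-101 male 1 or male 2, or Mut-1 female 2, and was lost without any of the other 15 arrays.

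Single arrays also moved the calls and counts of the lines. In Mut-1 over wild-type discs, mRpL24 was lost without any Mut-1 array, WT-6 female 2, WT-24 male 1 or WT-24 female 2. In Mut-101, mRpL42 was lost without WT-6 male 2 or either WT-6 female, WT-24 male 1 or either WT-24 female, Mut-101 male 1 or either Mut-101 female. mRpL48 and mRpL44 were lost in Mut-101 without its male 1 or female 2, and mRpS18C and mRpL36 without its female 2. Without Mut-1 male replicate 2 the count of Mut-1 against wild-type discs was 13, and without Mut-101 male replicate 1 or female replicate 2 that of Mut-101 was 4 or 3. Between the lines, the count was 1 without Mut-101 male 2 or female 1, or without Mut-1 male 2 or female 1. With the number in the sample descriptions as a block, the counts were 11 for Mut-1 and 0 for Mut-101 over wild-type discs, and 0 between the lines. All 8 calls of Mut-101 were thus lost, mRpL46 and mRpL24 among them. Mut-101 and WT-24 arrays have no description number in common, so this block and the differences between lines cannot be fully told apart. With arrays centred on the median of all probe sets the 3 counts were 4, 0 and 0. The spok transcript was at 25.8 to 148.8 units in Mut-1 discs and at 19.4 to 2354 units in Mut-101 discs. Salivary gland marker sums had medians of 20394 in Mut-1 and 7949 in Mut-101 discs, and fat body sums 3890.4 in Mut-1 and 1811 in Mut-101 discs, with no marker of these 3 tissues past the threshold. Of the 13 eye disc markers 1 was lower and none higher in Mut-1 than in Mut-101, or 7.69% against 3.49% of all tested probe sets. Over wild-type discs 5 of the 13 were lower in Mut-1 (38.5%) and 1 in Mut-101 (7.69%), and none was higher in either line. The part of these tissues in the difference between the lines was not tested.

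Between the 2 wild-type lines 0 of the 69 genes passed the limma threshold, against 0.955% of all tested probe sets (0.594% higher and 0.361% lower), and 2 had an unadjusted p under 0.05. mRpL4 had the largest difference in WT-24 over WT-6, at -0.23 ± 0.0596 (limma adjusted p = 0.117). It read 2397, 2554, 2479 and 2398 in WT-24, against 2919.7, 2765, 2967 and 2899.7 in WT-6. mRpL23 was at 0.16 and mRpL54 at 0.12 (limma adjusted p = 0.808 and 0.55).

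Male and female discs differed in 9 of the 69 genes, 1 higher and 8 lower in males. That is 13.0% of the group, against 12.3% of all tested probe sets (7.76% higher and 4.56% lower). The median change of the group was -0.05, with 61 of 69 changes negative, whereas the median of all probe sets was 0.02. The mean log2 intensity of the 69 genes was 11.53 ± 0.0439 on male arrays and 11.57 ± 0.0398 on female arrays (SD, n = 10 each). Array medians also differed between the sexes, from 220.2 to 282.8 units in males and from 210.2 to 232.6 units in females. With arrays centred on the median of all their probe sets the median change was -0.15 for the group and -0.08 for all probe sets, with 0 genes higher and 6 lower. Muscle marker sums had medians of 7084 in male and 3751 in female discs, and 1 of the 6 tested muscle markers was higher in males. Salivary gland sums had medians of 19098 in male and 8845 in female discs, and ring gland sums 1923 in male and 663.3 in female discs, with no marker of either past the threshold. Their part in the sex differences was not tested.

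X-linked genes held the extremes in both directions. mRpS30, an X-linked gene whose mammalian relative belongs to the large subunit, lay at 2159, 2412 and 2662 in male discs, against 2643, 2899 and 3314 in female discs. The ranges met at a single array on each side. It changed by -0.29 ± 0.0371 in males over females (limma adjusted p = 0.000324). mRpL33, also X-linked, changed by -0.15 ± 0.0255 (limma adjusted p = 0.00215), with 3897 to 4300 units in males and 4213 to 4900 units in females. mRpL16, X-linked as well, was the gene higher in males, at 2872 to 3252 units against 2648 to 2986 units in females, a change of 0.14 ± 0.0216 (limma adjusted p = 0.00113). All 3 calls held without any single array. Of the 11 X-linked genes of the group these 3 passed the threshold, and of all 1356 X-linked genes tested 32.7% did, against 7.30% of 6607 autosomal genes.

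No gene of the group had its male arrays wholly above or below its female arrays, as 0.312% and 0.565% of all probe sets had. On the autosomes, mRpS18C changed by -0.16 (limma adjusted p = 0.0312), mRpS35 by -0.12 (limma adjusted p = 0.0484) and mRpL15 by -0.10 (limma adjusted p = 0.0228). The other 3 were mRpS9 at -0.09, mRpL47 at -0.08 and mRpL44 at -0.07. mRpS18C held without non-transgenic male 1 or female 2, WT-6 male 1 or female 1, Mut-101 male 1 or female 1, or Mut-1 male 2 or female 1, and was lost without any of the other 12 arrays. mRpS35 held without WT-6 male 1 or female 1, WT-24 male 1, or Mut-101 male 1 or female 1, and was lost without any of the other 15. mRpL15 was lost without WT-6 female 2, Mut-101 male 2 or Mut-101 female 2. The count of 9 was 19 without WT-6 male replicate 1, 4 without Mut-101 male replicate 2, and 3 without WT-6 female replicate 2 or without Mut-101 female replicate 2. Without both fat body arrays, or without the 2 arrays of lowest mean level, it was 3.

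**Figure D4:**
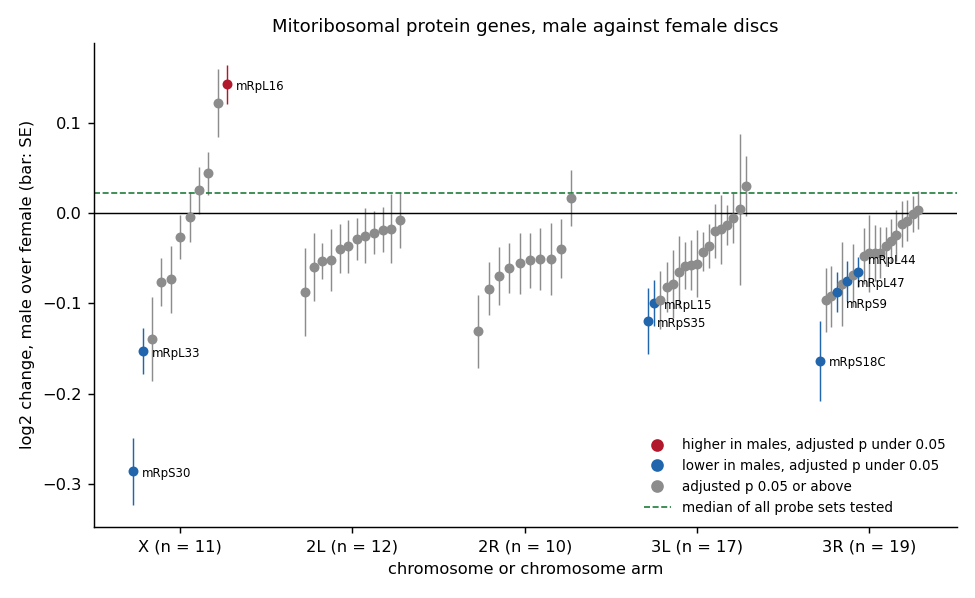
Log2 change in male over female discs (10 arrays each) of the 69 mitoribosomal genes by chromosome or arm, with bars for the SE and a dashed line at the median of all tested probe sets (0.02). The X-linked genes run from mRpS30 at -0.29 to mRpL16 at 0.14, and most genes on the autosomes lie below 0.

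The C96Y difference was also read within each sex. In males, 7 genes were higher and 2 lower in C96Y than in wild-type discs, against 8.13% of all tested probe sets (5.60% higher and 2.52% lower). In females, 11 were higher and 2 lower, against 6.55% (4.10% higher and 2.45% lower). mRpL46 changed by -0.28 ± 0.0444 in males and by -0.24 ± 0.0444 in females, and mRpL36 by 0.28 ± 0.0627 and 0.38 ± 0.0627 in the same order. The difference between the sexes was tested directly and 0 of the 69 genes passed in limma, as 0% of all tested probe sets did, while 1 of the 69 had an unadjusted p under 0.05. The 3 largest differences of the C96Y change in males minus females were -0.15 ± 0.0722 for mRpS6, -0.12 ± 0.0996 for mRpS18C and -0.12 ± 0.104 for mRpS14 (limma adjusted p = 0.999 each).

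Genes that work with the mitochondrial ribosome, or that share its products, were counted in the same fit of C96Y over wild-type discs. There 20.1% of all tested probe sets passed the threshold. The shares were 23.1% of translation factors, 20% of synthetases, 25% of DNA and RNA genes and 13.3% of import genes. Of 13 translation factors 1 was higher, mEFTu2, a relative of the elongation factor that delivers aminoacyl-tRNA, at 0.13. Of the same 13, 2 were lower, namely mEFTs and mTerf3, each at -0.12. Among 15 mitochondrial aminoacyl-tRNA synthetases and relatives, SerRS-m (0.16) and its relative Slimp (0.12) were higher and ValRS-m (-0.19) was lower. Of 12 genes of mitochondrial DNA and RNA handling 3 were higher and none lower: the single-stranded DNA binding protein mtSSB (0.21), the RNA polymerase PolrMT (0.24) and the RNA-binding protein bsf (0.16). Of 15 import genes, ttm50 was higher at 0.08 and Tom40, the pore of the outer membrane, lower at -0.20.

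Among mitochondrial chaperones and proteases, 7 of 11 tested genes were higher and 1 was lower, together 72.7% against 20.1% of all tested probe sets. The list is short and was chosen with earlier results of these data known, so its share is no separate support. The m-AAA protease subunits Spg7 and Afg3l2 changed by 0.38 ± 0.0459 and 0.32 ± 0.0421 (limma adjusted p = 0.000107 and 0.000188). In yeast and mouse this protease cleaves the precursor of the protein that corresponds to mRpL32, whose own transcript was at -0.06 (limma adjusted p = 0.332). The prohibitin Phb2 changed by 0.12 (limma adjusted p = 5.3e-05), and the chaperone Hsc70-5 by 0.08 (limma adjusted p = 0.0357). The chaperonin Hsp60A was at 0.07 and did not pass (limma adjusted p = 0.251). Of 8 regulators of mitochondrial growth Pink1 was higher at 0.25, and S6k (-0.14) and Cdk4 (-0.08) were lower, together 37.5% of this short list.

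Of 57 genes of the respiratory chain and ATP synthase 11 were higher and none lower, with a median change of 0.04, and of 34 cytosolic ribosomal protein genes 5 were higher and none lower, with a median of 0.00. These are 19.3% and 14.7% of the lists, against 20.1% of all tested probe sets. ATPsynCF6, a coupling factor of ATP synthase, rose by 0.32, the Rieske protein RFeSP by 0.30 and COX8 by 0.25. The cytosolic ribosomal genes RpS7, RpL39 and RpL28 each rose by 0.06. Mitoribosomal genes with other names did not pass the threshold: tko, the S12 protein known in flies from a bang-sensitive mutant, was at 0.11 (limma adjusted p = 0.12), bonsai, the S15 protein, at -0.05 (limma adjusted p = 0.276) and CRIF at -0.12 (limma adjusted p = 0.122).

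**Figure D5:**
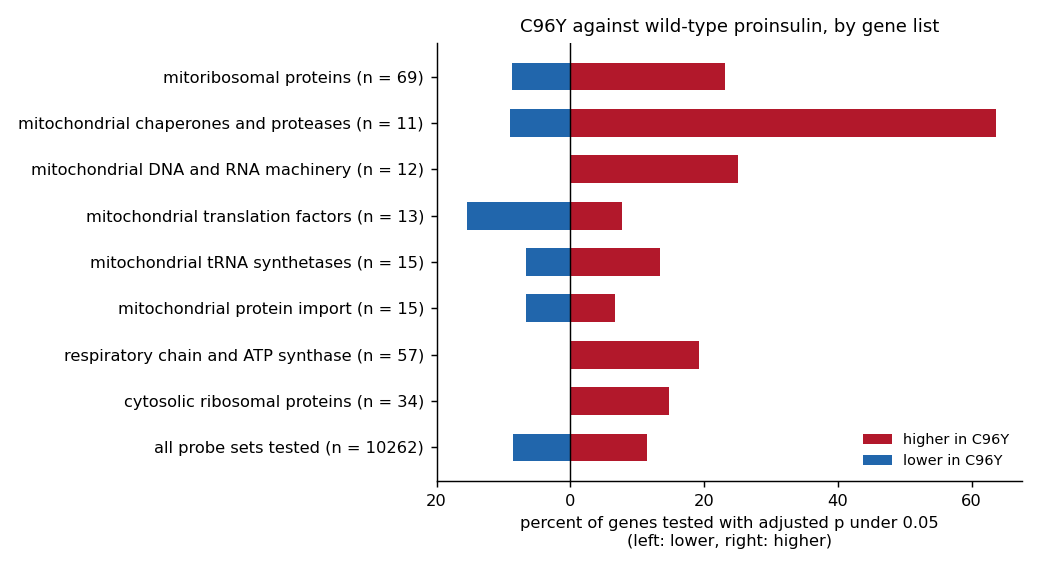
Percent of the tested genes of each list that were higher (right, red) or lower (left, blue) in C96Y than in wild-type proinsulin discs at an adjusted p under 0.05, with the mitoribosomal genes on top and all tested probe sets at the bottom. The mitoribosomal genes have 16 higher and 6 lower of 69, the chaperones and proteases 7 higher and 1 lower of 11, and the respiratory chain and cytosolic ribosomal genes no lower gene. The lists were chosen with earlier results of these data known.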

How the data were processed

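RNA of eye discs was hybridised to 20 Affymetrix arrays. The deposited table holds 1 linear intensity per probe set and array, made by the authors with MAS5, per the submitters' processing notes; version and scaling target are not given in the sources used here, and there is no detection call. Of 18952 probe sets, 183 array controls were left out, 13647 have 1 gene, 402 several and 4720 none in the platform annotation. Names and neighbours come from a RefSeq gene table (Release 6 plus ISO1 MT), in which the symbols of all 69 members matched. Each gene kept its probe set of highest mean, and the upper 60% of 17104 by mean were tested (10262, of which 8009 named; lowest geometric mean 158). Log2 intensities with no pseudocount entered limma 3.58.1 (R 4.3.3) with a mean for each line and sex, all 20 arrays in the model, equal weights for lines and sexes, and eBayes with a trend (10 residual and 3.19 prior degrees of freedom). Tests were two-sided and Benjamini-Hochberg adjusted over all probe sets, called under 0.05. The median residual SD was 0.102 for all probe sets and 0.0643 for the members.

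The labels call the arrays of a line and sex biological replicates (correlation 0.978 to 0.993, none identical), so p-values measure only the spread between such arrays. Replicate numbers of the titles did not pair arrays: over 45 pairs of groups the correlation of deviations lay between -0.47 and 0.29, and 14 exceeded 0.1. The number of arrays limits the precision. The text names, for C96Y against wild-type proinsulin, up to 12 higher and 12 lower called members with 1 sign in all 4 line pairs; for other comparisons up to 5 each way, or the 3 largest values where under 3 were called; up to 3 called genes of each partner list; and mRpL12, tko, bonsai, Hsc70-5 and Hsp60A always. Other called members and other genes of the lists are named to complete a count, and mRpL23, mRpL20 against non-transgenic discs, mRpL27 and mRpS11 after their values were seen. Members, lists and markers were chosen with earlier results of these data known. Alternatives covered scaling, the filter, the probe set per gene, the variance trend, blocks, line means, and leaving out lines and arrays. The script was tested on simulated data. The proinsulin transgene itself was not analysed here.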

Additional observations from a re-analysis of the deposited data

Results flagged for a closer look

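In groups of 4 to 10 arrays, 87 sets of intensities of named mitoribosomal genes were searched for an array that stands apart by Dixon's criterion, and 4 were found, where chance gives about 1 in 20. Mut-101 male replicate 2 was low for mRpL12, at 3869 units, and for mRpL44, at 5177 units; the same array had the highest array median. WT-6 male replicate 2 was low for mRpS6, at 2159 units, and it also had the lowest mean level of the group. Non-transgenic female replicate 1 was high for mRpS18C, at 836 units. The C96Y lines differed from each other by a direct limma test in mRpL28, by 0.30, and in mRpS6, by 0.23, both higher in Mut-1 than in Mut-101.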

How the results depend on the processing

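Among values of named genes under the alternatives, with single arrays counted by their lowest and highest value, 839 kept their side of the threshold, 229 no longer passed and 4 newly passed. Of values past the threshold 0 changed sign. Of values not past it 6 did: mRpL12 in C96Y over wild-type discs, at -0.00, took 5 values between 0.01 and 0.02, and mRpL23 in WT-24 over WT-6, at 0.16, took -0.03 with the number in the sample descriptions as a block. Counts of genes past the threshold moved more, as follows, and the cause was not tested. For C96Y against wild-type proinsulin (22), the count was 8 without Mut-1, 11 without WT-24 and 0 with 1 mean per line, and 18 to 23 when single arrays were left out. For C96Y against non-transgenic discs (12), it was 3 without Mut-1, 0 with 1 mean per line, 5 higher and 3 lower with arrays centred on their medians, and 4 to 13 over single arrays. For Mut-1 against wild-type proinsulin (21) it was 13 without WT-24 and 13 to 26 over single arrays. For Mut-101 against wild-type proinsulin (8) it was 4 without WT-24, 3 higher and 4 lower with arrays centred on their medians, and 3 to 12 over single arrays. Between Mut-1 and Mut-101 (2) it was 1 without WT-24 and 1 to 3 over single arrays. Between males and females (9) it was 4 without Mut-1, 3 without Mut-101, 3 without WT-24 and 3 to 19 over single arrays. The counts of 0, for wild-type against non-transgenic discs, WT-24 against WT-6 and the interaction, stayed 0 under the alternatives run.

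The title's replicate numbers did not pair the arrays. With that replicate block the counts, in the same order, were 21, 9, 19, 7, 2 and 8, and no count moved by over 1.5 times. With the number in the sample descriptions as the block they were 7, 1, 11, 0, 0 and 3. That number partly follows the line, so the block also takes up part of the differences between lines.

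The next alternatives were chosen after seeing the data. With arrays centred on the median of all their probe sets, the counts in the same order were 3, 0, 4 (4 higher and 0 lower), 0, 0 and 6 (0 higher and 6 lower). Without the 2 fat body arrays, C96Y against non-transgenic discs gave 3 and males against females 3. Without the 2 arrays of lowest mean level, males against females gave 3. Without the 8 arrays rich in spok, C96Y against wild-type proinsulin gave 11. Signal over background was not measured, since the deposited values have no detection call.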
